A study of Mus musculus with 16 samples.

Results

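The acyl-CoA thioesterases Acot1, Acot2, Acot3, Acot4, Acot8, Acot9, Acot12 and Acot13 were described in mouse liver across 2 diets and 2 genotypes. They were picked by gene name as 8 of the 23258 rows of the deposited gene table, which holds 13 rows named Acot with a number. All 8 were among the 16830 genes that passed a filter on low counts, in every comparison. Livers came from C57BL/6 mice and fall into knockout on high-fat diet (n = 5), wild type on high-fat diet (n = 4), knockout on chow (n = 4) and wild type on chow (n = 3). Knockout mice lacked miR-33 in the liver, and the name given to the deposited table mentions Alb-Cre, a recombinase under the albumin promoter that acts in hepatocytes. The labels give neither age, sex nor the length or composition of the diets, and the same strain is given for every group. They do not state that libraries came from separate animals, which limits p-values to the spread between libraries, technical or not. Sample numbers form different series on each diet, so diet and number series cannot be told apart.

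Acyl-CoA thioesterases split a fatty acyl-CoA into the free fatty acid and coenzyme A, the reverse of what acyl-CoA synthetases do. The members work in several compartments: Acot1 in the cytosol, Acot2 and Acot9 in mitochondria, and Acot3, Acot4 and Acot8 in peroxisomes. Acot12 works in the cytosol with acetyl-CoA as its known substrate, and Acot13 at mitochondria and in the cytosol with long-chain acyl-CoA. In mouse liver the Acot1 to Acot6 cluster is known for its induction by fasting and by activators of PPAR alpha, the nuclear receptor of fatty acid oxidation. miR-33 lies in an intron of Srebf2 and is known for repressing cholesterol efflux and fatty acid oxidation genes.

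Acot2, Acot1, Acot4, Acot3, Acot5 and Acot6 follow each other in that order on the plus strand of chromosome 12 (build GRCm38/mm10) within 123489 bp. Acot2 spans chr12:83987861-83993873, Acot1 chr12:84009490-84018371, Acot4 chr12:84038379-84048601 and Acot3 chr12:84052144-84060402. The other members lie apart, Acot8 at chr2:164792768-164804882 on the minus strand, Acot9 at chrX:155262443-155297654, Acot12 at chr13:91741512-91786148 and Acot13 at chr13:24817948-24831540 on the minus strand, and Acot8 is the member whose limits in the table differ from those in GENCODE M21. The coding sequences of Acot1 and Acot2 were identical at 1183 of 1239 aligned bases (95.5%), against 84.0% for Acot1 and Acot3 and 76.6% for Acot1 and Acot4. The labels state reads of 75 bases and also 45 cycles, which were not reconciled, and the windows below use 75 bases. Of the 75-base windows of the longest Acot1 transcript, 26.4% also occurred in another gene, mostly in Acot2, and for Acot2 the share was 21.2%. It was 18.7% for Acot3 (most often Gm49366, an overlapping gene on the same strand), 10.7% for Acot4 (mostly the antisense gene 4732463B04Rik), 15.8% for Acot8 (Snx21), 7.15% for Acot9 (Acot10), 2.51% for Acot12 (the antisense gene 4833422C13Rik) and 0 windows for Acot13. The counting could therefore split reads of these members, and their single-gene values are uncertain to that extent. The deposited values carried fractions in all 16 libraries for each member except Acot13, whose value was whole in 14 of 16.

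The start regions of Acot1, Acot4 and Acot12 are shown because Acot1 differed most between diets, Acot4 is its neighbour with a smaller difference, and Acot12 held the closest match to the element that PPAR alpha is known to bind with its partner RXR. That element is a direct repeat of AGGTCA with 1 base of any kind between the copies, and it was searched on both strands of RefSeq windows of 300 bases (GRCm38.p6, 250 before and 50 after the gene's start). RefSeq windows were matched by symbol for Acot1, Acot2, Acot3, Acot4, Acot8, Acot9 and Acot12. Each sequence runs 5′ to 3′ on the plus strand, and capitals mark the stretch with the fewest mismatches to the repeat on either strand.
Acot1, chr12:84009252-84009551: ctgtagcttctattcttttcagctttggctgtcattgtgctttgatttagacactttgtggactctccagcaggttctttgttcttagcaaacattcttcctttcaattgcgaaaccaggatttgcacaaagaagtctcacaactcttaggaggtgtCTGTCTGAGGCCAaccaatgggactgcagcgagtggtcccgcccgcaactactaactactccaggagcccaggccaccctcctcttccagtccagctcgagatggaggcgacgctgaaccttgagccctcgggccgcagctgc
Acot4, chr12:84038129-84038428: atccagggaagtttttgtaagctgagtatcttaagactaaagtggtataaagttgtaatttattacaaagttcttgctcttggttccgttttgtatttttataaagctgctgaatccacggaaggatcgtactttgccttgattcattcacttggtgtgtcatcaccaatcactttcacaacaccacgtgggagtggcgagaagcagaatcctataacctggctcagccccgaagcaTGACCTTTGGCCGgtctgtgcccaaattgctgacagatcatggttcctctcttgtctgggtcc
Acot12, chr13:91741271-91741570: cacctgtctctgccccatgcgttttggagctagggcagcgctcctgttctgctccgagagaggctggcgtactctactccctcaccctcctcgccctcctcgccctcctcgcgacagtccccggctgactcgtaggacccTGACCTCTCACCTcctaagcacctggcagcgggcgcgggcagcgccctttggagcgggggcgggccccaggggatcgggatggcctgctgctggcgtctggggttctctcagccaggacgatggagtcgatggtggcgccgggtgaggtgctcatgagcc
Acot12 came within 1 mismatch of the 12 fixed letters, a match that 0.554% of 32851 windows reached, and Acot4 came within 2 mismatches, as 3.86% of windows did. Acot2 and Acot3 had 3 mismatches, and 24.6% of windows had 3 or fewer. Acot1 and Acot9 had 4, which 79.8% of windows matched or bettered, and Acot8 had 5, which 99.9% matched or bettered. The letters CCAAT, on either strand, occurred in 37.4% of windows and in each of the matched members but Acot12. These counts describe letters in a window, not binding.

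Mature miR-33-5p, shown because it is the deleted microRNA, comes from chr15:82198127-82198147 on the plus strand, with its seed, bases 2 to 8, in capitals.
mmu-miR-33-5p: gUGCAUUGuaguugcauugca
Sites counted were CAATGCA, the complement of the seed, and AATGCAA. Of the members, 0 of 8 held such a site in the longest 3′ UTR among its protein-coding GENCODE M21 transcripts. These 3′ UTRs ran from 87 bases in Acot13 to 4805 in Acot4. Over the 20937 genes with a 3′ UTR of at least 20 bases, 15.0% held at least 1 site. Levels of miR-33 were not analysed here, and the deletion is therefore checked by none of the values.

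Library totals lay between 15888400 and 29469600 estimated counts, of which 0.637% to 14.6% fell on a ribosomal RNA gene (CT010467.1). A pair of libraries stood apart, picked after these data were seen. On the third principal component knockout 1 on high-fat diet lay at 50.2, against -19.1 to 13.7 for the other 15 libraries. On the second, wild type 3 on chow lay at -48.8, against -16.8 to 27.015 for the other 15, and 2.54% of its counts fell on the ribosomal RNA gene, against 11.3% to 14.6% in the other chow libraries. Summed levels of 15 hepatocyte markers ran from 80572 to 101099 CPM (counts scaled to library size, with TMM factors) in high-fat knockout livers and from 80982 to 98449 in high-fat wild-type livers. On chow they ran from 114618 to 126975 CPM in knockout livers and from 115443 to 121435 in wild-type livers. The sum was lower on the high-fat diet without overlap, while single markers differed in this: Alb, Ttr, Ass1 and Cyp3a11, named after their values were seen, overlapped between diets in both genotypes and did not pass the test (edgeR). In whole liver, fewer cells of a type and less RNA per cell cannot be told apart.

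On the high-fat diet, liver Acot1 fell to 0.0962 of its chow level in knockout and to 0.139 of it in wild type, the largest difference in the family in both genotypes. Acot8 and Acot12 also fell in both genotypes, while Acot9 and Acot13 rose in both. Acot2, Acot3 and Acot4 fell in knockout livers and did not pass the test in wild type. In knockout, 8 of 8 members passed the test (edgeR's quasi-likelihood test, Benjamini-Hochberg adjusted p under 0.05 over 16830 genes), 2 higher and 6 lower, where 33.6% of all genes passed, 17.4% higher and 16.2% lower. In wild type, 5 of 8 passed, 2 higher and 3 lower, where 29.4% of all genes passed, 15.2% higher and 14.2% lower. The median log2 fold change was -0.81 over the members and -0.01 over all genes in knockout, and -0.65 and -0.02 in wild type. Earlier results of these diet contrasts were known when the family was chosen, so these counts describe it and support nothing further.

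**Figure D1:**
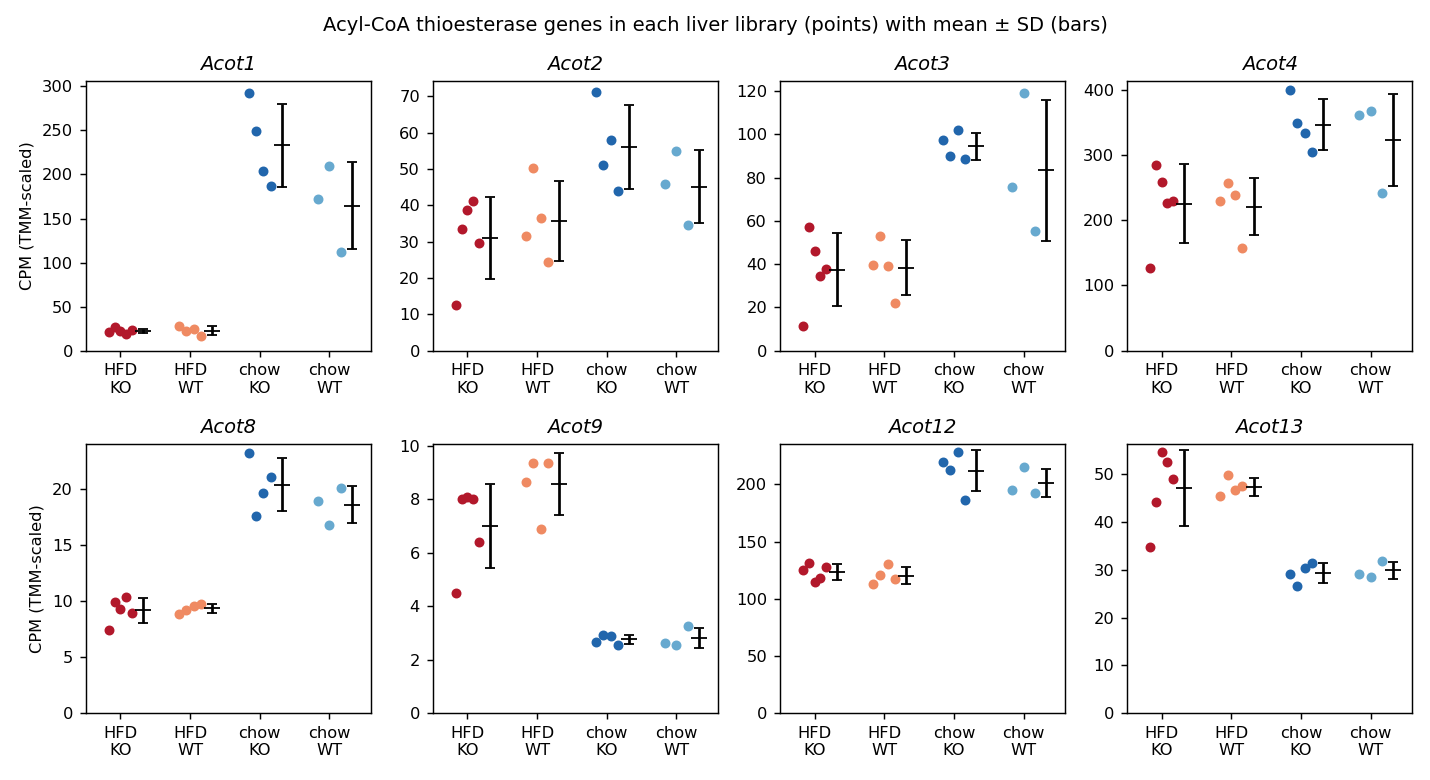
CPM (TMM-scaled, linear axis from 0) of each of the 8 genes in every library, by group, with the mean and SD beside the points. Acot1, Acot8 and Acot12 lay lower and Acot9 and Acot13 higher in every high-fat library than in any chow library, and knockout and wild type overlapped on both diets in all 8 panels.

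Acot1, the cytosolic long-chain enzyme, had 20.7, 26.5, 22.4, 19.5 and 22.97 CPM in high-fat knockout livers and 28.01, 22.7, 24.7 and 16.2 CPM in high-fat wild-type livers. On chow it had 292, 249, 204 and 187 CPM in the knockout and 173, 209 and 112 CPM in the wild type. The highest high-fat library was thus 28.01 CPM and the lowest chow library 112 CPM, so the diets did not overlap in either genotype. Acot1 fell by 3.38 ± 0.19 (SE) on the log2 scale in knockout (adjusted p = 3.35e-08, edgeR). In wild type it fell by 2.85 ± 0.21 (adjusted p = 4.83e-07, edgeR). Among the 16830 genes tested, 10 had a lower log2 fold change than Acot1 in knockout and 38 in wild type. The call was kept in each alternative run, between -3.47 and -3.25 in knockout and -3.06 and -2.64 in wild type. Without both libraries that stood apart the values were -3.33 in knockout and -3.04 in wild type.

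Acot2, the mitochondrial matrix enzyme next to Acot1, behaved less uniformly. It had 12.6, 33.5, 38.6, 41.3 and 29.7 CPM in high-fat knockout livers and 31.5, 50.3, 36.5 and 24.3 CPM in high-fat wild-type livers. The chow values were 71.3, 51.2, 57.9 and 44.1 CPM in the knockout and 45.8, 54.9 and 34.7 CPM in the wild type. The knockout diets did not overlap, with 41.3 CPM as the highest high-fat and 44.1 CPM as the lowest chow value, while the wild-type diets overlapped. Acot2 fell by 0.84 ± 0.29 on the log2 scale in knockout (adjusted p = 0.0412, edgeR). This call was lost in 10 of 24 alternatives, with an adjusted p of up to 0.118 without knockout 1 on chow. In wild type the log2 fold change was -0.34 with a 95% interval of -1.06 to 0.39 (adjusted p = 0.489, edgeR).

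Because reads of Acot1 and Acot2 could be split between them, their ratio and the sum of the cluster are given too. The log2 ratio of Acot1 to Acot2 counts was -0.37 ± 0.68 in high-fat knockout and -0.62 ± 0.40 in high-fat wild-type livers. On chow it was 2.05 ± 0.19 in knockout and 1.85 ± 0.13 in wild type (SD). These ratios are of counts, not scaled to length. The lowest chow ratio was 1.69 and the highest high-fat ratio 0.71, in knockout 1, so the diets did not overlap. Acot1 to Acot6 summed to 319.7 ± 87.9 CPM in high-fat knockout and 321 ± 70.2 CPM in high-fat wild type, against 732 ± 98.8 CPM in chow knockout and 619 ± 156 CPM in chow wild type. The sum does not depend on how reads were shared among these genes. Sharing with genes outside the sum could still affect it, as Acot3 shared 355 windows with Gm49366 and Acot4 614 with 4732463B04Rik. It was lower on the high-fat diet without overlap, with a log2 ratio of -1.19 in knockout and -0.95 in wild type.

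The peroxisomal members were all lower in mean on the high-fat diet. Acot3, a long-chain enzyme of peroxisomes in mouse, had 11.3, 57.2, 45.9, 34.7 and 37.8 CPM in high-fat knockout livers and 39.7, 52.9, 39.0 and 22.1 CPM in high-fat wild-type livers. On chow the values were 97.4, 89.9, 102 and 88.5 CPM in the knockout and 75.5, 119 and 55.2 CPM in the wild type. No high-fat library reached the chow range of its genotype, though the wild-type ranges came as close as 52.9 and 55.2 CPM. Acot3 fell by 1.33 ± 0.37 in knockout on the log2 scale (adjusted p = 0.0144, edgeR). In wild type the difference was -1.11 ± 0.42 (adjusted p = 0.0641, edgeR). Over the 24 alternatives it ran from -1.34 to -0.76, with an adjusted p of up to 0.263 (edgeR). It passed in 4 of 24 alternatives, among them the fit without knockout 1 on high-fat diet (adjusted p = 0.0104), the fit without that library and wild type 3 on chow (adjusted p = 0.00474), DESeq2 (adjusted p = 0.0382) and limma voom (adjusted p = 0.0467).

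Acot4, which hydrolyses succinyl-CoA in mouse peroxisomes, had 127, 285, 259, 227 and 229 CPM in high-fat knockout livers and 229, 257, 239 and 157 CPM in high-fat wild-type livers. On chow it had 399.6, 348, 334 and 305 CPM in the knockout and 361, 367 and 242 CPM in the wild type. The knockout diets did not overlap, whereas the lowest wild-type chow library lay inside the high-fat range. Acot4 fell by 0.62 ± 0.20 on the log2 scale in knockout (adjusted p = 0.0267, edgeR), a call lost in 3 of 24 alternatives with an adjusted p of up to 0.0794. In wild type the difference was -0.55 ± 0.23 (adjusted p = 0.0831, edgeR). It ran from -0.72 to -0.42 over the 24 alternatives and passed in 3 of them. Those were edgeR fits without knockout 1 on high-fat diet (adjusted p = 0.0190) and without wild type 3 on chow (adjusted p = 0.0419). The last left out both (adjusted p = 0.00329, edgeR).

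Acot8, a peroxisomal enzyme of broad substrate range that also acts on bile acid CoA esters, had 7.39, 9.93, 9.29, 10.4 and 8.92 CPM in high-fat knockout livers and 8.90, 9.22, 9.60 and 9.78 CPM in high-fat wild-type livers. In chow-fed livers it had 23.3, 17.6, 19.7 and 21.1 CPM in the knockout and 18.9, 16.8 and 20.1 CPM in the wild type. High-fat libraries clustered closely, and the diets lay apart in both genotypes. Acot8 fell by 1.15 ± 0.10 on the log2 scale in knockout (adjusted p = 5.69e-07, edgeR) and by 0.99 ± 0.12 in wild type (adjusted p = 1.3e-05, edgeR).

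Acot12, the cytosolic acetyl-CoA hydrolase, had 126, 131, 115, 118 and 128 CPM in high-fat knockout livers and 113, 121, 131 and 117 CPM in high-fat wild-type livers. The chow values were 219.6, 212, 228 and 187 CPM in the knockout and 195, 215 and 192 CPM in the wild type. All high-fat libraries lay between 113 and 131 CPM and all chow libraries at 187 CPM or above, so the diets did not overlap. Acot12 fell by 0.78 ± 0.07 on the log2 scale in knockout (adjusted p = 6.47e-07, edgeR) and by 0.74 ± 0.08 in wild type (adjusted p = 4.64e-06, edgeR).

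Both rising members lie outside the chromosome 12 cluster. Acot6, in that cluster but not a member, rose as well and was named after its values were seen. Its rise on the log2 scale was 1.24 ± 0.29 in knockout (adjusted p = 0.0029, edgeR). In wild type it was 0.91 ± 0.32 (adjusted p = 0.0389, edgeR), where the diets overlapped. Acot6 averaged 3.32 and 3.65 CPM on high-fat diet against 1.40 and 1.98 CPM on chow (knockout and wild type). Acot9, a mitochondrial enzyme, had 4.49, 8.03, 8.11, 8.02 and 6.41 CPM in high-fat knockout livers and 8.64, 9.36, 6.91 and 9.35 CPM in high-fat wild-type livers. On chow the values were 2.66, 2.93, 2.90 and 2.56 CPM in the knockout and 2.63, 2.56 and 3.25 CPM in the wild type. Even the lowest high-fat library, 4.49 CPM in knockout 1, lay above the highest chow library. Acot9 rose by 1.35 ± 0.17 on the log2 scale in knockout, 2.55-fold (adjusted p = 1.68e-05, edgeR), and by 1.60 ± 0.20 in wild type, 3.04-fold (adjusted p = 1.8e-05, edgeR). Of the members, Acot9 rested on the fewest reads, with 40.9 to 68.3 estimated counts per knockout library on chow.

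Acot13, also named Them2, had 34.7, 44.2, 54.4, 52.5 and 49.0 CPM in high-fat knockout livers and 45.4, 49.7, 46.6 and 47.3 CPM in high-fat wild-type livers. In chow-fed livers it had 29.02, 26.7, 30.2 and 31.4 CPM in the knockout and 29.1, 28.4 and 31.9 CPM in the wild type. Every high-fat library lay above every chow library, the nearest being 34.7 CPM in knockout 1. Acot13 rose by 0.68 ± 0.10 on the log2 scale in knockout, 1.60-fold (adjusted p = 8.21e-05, edgeR), and by 0.67 ± 0.12 in wild type, 1.59-fold (adjusted p = 0.000425, edgeR). Diets lay apart without overlap for 6 members that were lower and 2 that were higher in knockout, where 13.0% and 13.5% of all genes did so. In wild type they lay apart for 4 lower and 2 higher members, where 17.7% and 18.3% of all genes did so.

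**Figure D2:**
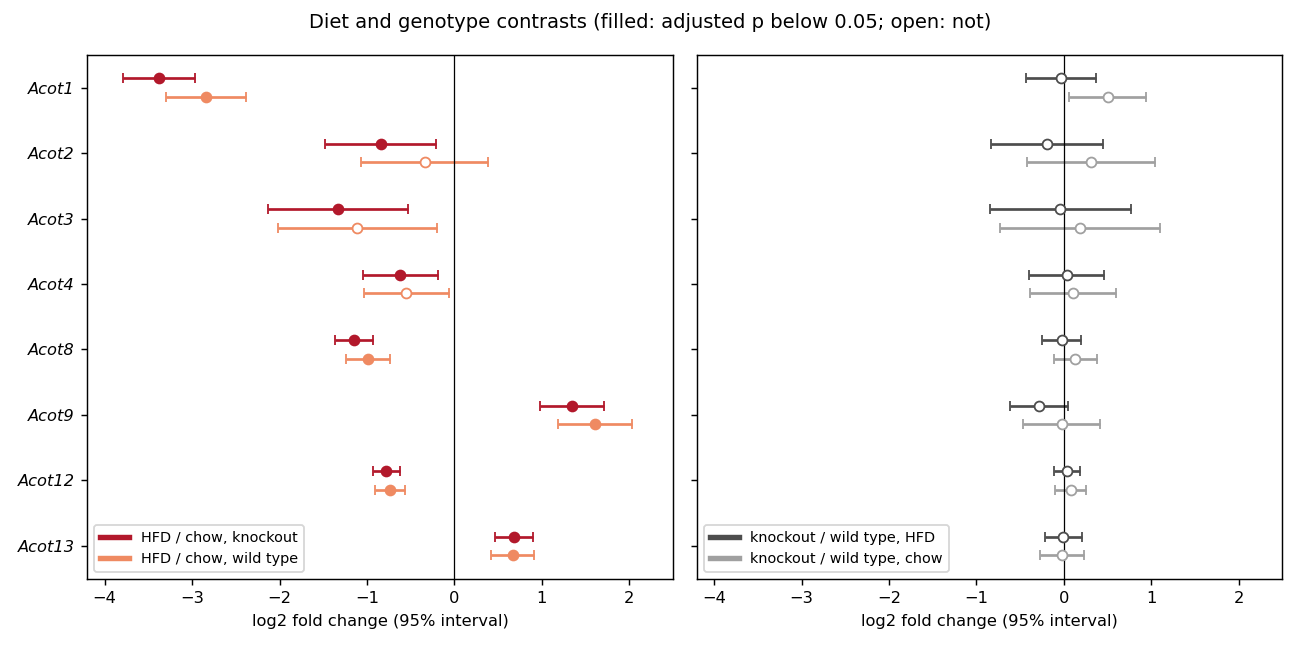
Log2 fold changes from the edgeR fit with 95% intervals derived from its F statistic. High-fat diet over chow is on the left and knockout over wild type on the right, with filled points where the adjusted p was under 0.05. On the left 8 knockout and 5 wild-type points are filled, and on the right none is, where every interval but that of Acot1 on chow crosses 0.

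Whether deletion of miR-33 changed these genes was asked on each diet. On high-fat diet 0 of 8 members passed the test, where 0.00594% of all genes did, and 0 of 8 had an unadjusted p under 0.05, where 3.81% of all genes did. DESeq2 and limma voom also called 0 of 8 on each diet and for the difference between diets. Differences of knockout from wild type ran from -0.28 ± 0.16 for Acot9 (95% interval -0.61 to 0.05) to 0.04 ± 0.07 for Acot12 (-0.11 to 0.19) on the log2 scale. The widest interval was that of Acot3, -0.85 to 0.77, and that of Acot1 was -0.43 to 0.37. On chow 0 of 8 passed, where 0.00594% of all genes did, and 1 of 8 had an unadjusted p under 0.05, where 5.95% of all genes did. That gene was Acot1, with 233 ± 47.4 CPM in chow knockout and 165 ± 49.1 CPM in chow wild type (SD), a log2 difference of 0.50 ± 0.21 (95% interval 0.06 to 0.94, adjusted p = 0.820 by edgeR). Without wild type 3 on chow it was 0.29, and without that library and knockout 1 on high-fat diet 0.28. The groups overlapped, since 2 of the 4 knockout libraries, at 204 and 187 CPM, lay below the highest wild-type library at 209 CPM.

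Over the rest of the family on chow, differences between genotypes ran from -0.03 ± 0.21 for Acot9 to 0.31 ± 0.34 for Acot2. Knockout and wild type overlapped in 8 of 8 members on each diet, where 1.24% of all genes did not overlap on high-fat diet and 5.62% on chow. The difference of the knockout effect on high-fat diet from that on chow passed for 0 of 8 members, where 0% of all genes passed, and 0 of 8 had an unadjusted p under 0.05, where 6.60% of all genes did. It was -0.53 for Acot1, with a 95% interval of -1.13 to 0.06, and -0.51 for Acot2, with -1.48 to 0.46. Without both libraries that stood apart it was -0.29 for Acot1 and -0.15 for Acot2. Tests that miss the threshold do not show that genotypes were alike, and on chow the intervals of the genotype difference reached 1.04 for Acot2 and 1.09 for Acot3 on the log2 scale.

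Levels of different genes were set against each other per kilobase of exons (the union of exons in GENCODE M21). In knockout on high-fat diet Acot13 led with 63.1 ± 10.6 CPM per kilobase, followed by Acot12 with 37.5 ± 2.10 and Acot4 with 33.8 ± 8.98. Acot2 (14.2), Acot3 (10.9), Acot1 (5.72), Acot8 (4.60) and Acot9 (3.08) followed. Wild type on high-fat diet had the same order, with 63.5 CPM per kilobase for Acot13, 36.6 for Acot12, 33.03 for Acot4 and 5.84 for Acot1. Of neighbours in these orders, Acot12 and Acot4, Acot2 and Acot3, Acot3 and Acot1, and Acot1 and Acot8 overlapped between libraries on high-fat diet in both genotypes.

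Chow livers had another order. In knockout on chow Acot12 came first with 64.3 CPM per kilobase, then Acot1 with 59.4, Acot4 with 51.9 and Acot13 with 39.4. In wild type on chow Acot12 had 61.0, Acot4 48.4, Acot1 42.1 and Acot13 40.1 CPM per kilobase. Acot3, Acot2, Acot8 and Acot9 filled the last places in both genotypes, down to 1.22 in knockout and 1.24 in wild type for Acot9. Acot12 overlapped with Acot1, and Acot1 with Acot4, in knockout, while in wild type Acot4 overlapped with Acot1 and Acot1 with Acot13. Acot3 and Acot2 overlapped in both genotypes. Per longest transcript in place of exon union, Acot1 came first on chow, with 102.5 CPM per kilobase in knockout and 72.5 in wild type, so its place depended on the length used.

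The members summed to 173 ± 28.02 CPM per kilobase in high-fat knockout and 175 ± 17.4 in high-fat wild type, against 279.6 ± 26.3 in knockout and 247 ± 35.9 in wild type on chow. Acot1 made up 3.37% of this sum in high-fat knockout and 3.33% in high-fat wild type, against 21.1% in knockout and 16.8% in wild type on chow. Acot13 made up 36.6% in both genotypes on high-fat diet, against 14.2% in knockout and 16.6% in wild type on chow. Shares of 1 sum are not independent of each other.

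**Figure D3:**
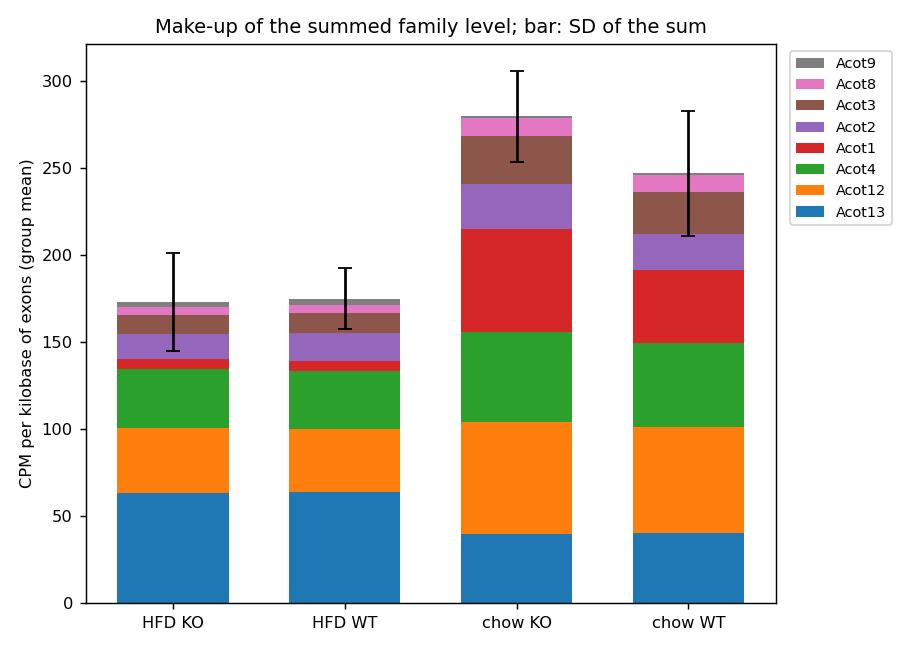
Group mean CPM per kilobase of exons of the 8 members, stacked, on an axis from 0, with the SD of the sum over libraries as the error bar. The Acot1 layer is 5.72 and 5.84 on high-fat diet against 59.4 and 42.1 on chow, and the Acot13 layer is 63.1 and 63.5 against 39.4 and 40.1 (knockout and wild type).

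Within groups, members varied from library to library. Knockout 1 on high-fat diet was low for Acot3 (-1.54), Acot2 (-1.19) and Acot4 (-0.78), and also for Acot9 (-0.60), Acot13 (-0.42) and Acot8 (-0.30), as log2 deviations from the group mean. The same library was near its group for Acot1 (-0.11) and Acot12 (0.03). Its hepatocyte markers deviated by 0.06 on average, and ribosomal RNA took 12.3% of its counts, close to the 11.9% of knockout 4. Why this library was low for those members was not tested. Wild type 4 on high-fat diet and wild type 3 on chow were low for all of Acot1 to Acot4, by 0.54 and 0.44 on average.

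Across the 16 libraries the deviations of Acot3 and Acot4 had a Pearson r of 0.94, and r was 0.88 over the 15 libraries without knockout 1 on high-fat diet, left out after the data were seen. For Acot2 and Acot4 r was 0.90 and, without that library, 0.78, and for Acot2 and Acot3 it was 0.88 and 0.71. Acot1 had r of 0.69 with Acot4, 0.55 with Acot3 and 0.44 with Acot2, and 0.89, 0.75 and 0.56 without that library. Acot2 had r of 0.65 with Acot13 and 0.57 with Acot9, outside the cluster, and 0.06 and -0.07 without it. Acot9 and Acot13 had r of 0.71 over 16 libraries and 0.22 without it, so that relation rested on 1 library. All points share their libraries and depth, and cluster genes share sequence.

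**Figure D4:**
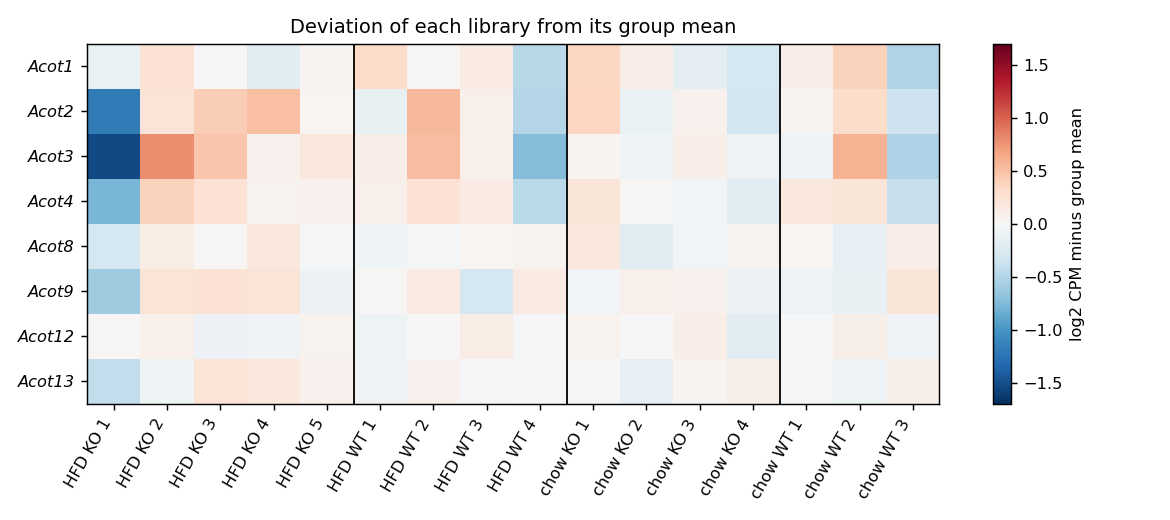
Log2 CPM of each member in each library minus its group mean, in colour (blue below, red above), with black lines between groups. Knockout 1 on high-fat diet is blue for Acot2, Acot3 and Acot4 (-1.19, -1.54 and -0.78) and pale for Acot1 and Acot12, and wild type 4 on high-fat diet and wild type 3 on chow are blue for Acot1 to Acot4.

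Among 11629 genes searched, those whose deviations were most like a member's were found by Pearson r over the 16 libraries. Acot3 was closest to Acot4 (0.94), Plin2 (0.92), a lipid droplet coat protein, and Decr1 (0.92), a reductase of mitochondrial oxidation of unsaturated fatty acids. Acot4 was closest to Acot3, Decr1 (0.93) and Acaa1b (0.93), a peroxisomal thiolase. Acot2 was closest to Acaa1b (0.90), Acot4 and Arfip2 (0.90). Without knockout 1 on high-fat diet these values for Acot2, Acot3 and Acot4 ran from 0.75 to 0.88.

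The other members had other neighbours in this measure. Acot1 was closest to Ncl (0.86), Ube2j1 (0.85) and Kif5b (0.85). Acot12 was closest to Sumf2 (0.81), Acot8 to S100a11 (0.91), Acot9 to Nqo1 (0.88) and Acot13 to Apoc2 (0.93). Leaving out knockout 1 on high-fat diet gave 0.67 for Acot9 and Nqo1 and 0.77 for Acot13 and Apoc2.

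Other genes of related activity changed in both directions. Beside the counts of each list below stand the shares over all genes. These were 17.4% higher and 16.2% lower in knockout, and 15.2% higher and 14.2% lower in wild type. The first list held other thioesterases and also Nudt7 and Nudt19, nudix hydrolases that cleave coenzyme A and its esters at the diphosphate and are not thioesterases. Of its 12 tested genes, 7 rose, Nudt7 among them, and 1 fell with the high-fat diet in knockout, and 4 rose and 2 fell in wild type. Acot11, a thioesterase with a lipid-binding START domain, averaged 16.5 ± 3.32 CPM in high-fat knockout and 15.4 ± 4.55 CPM in high-fat wild type, against 4.87 ± 1.07 and 5.26 ± 1.95 CPM in knockout and wild type on chow. It rose by 1.77 ± 0.23 on the log2 scale in knockout (adjusted p = 2.57e-05) and by 1.54 ± 0.26 in wild type (adjusted p = 0.000368, edgeR). Them6 rose by 1.19 ± 0.22 in knockout and 1.29 ± 0.25 in wild type. Them4, a mitochondrial long-chain enzyme, fell by 0.64 ± 0.10 in knockout and 0.70 ± 0.11 in wild type. The median log2 fold change of this list was 0.45 in knockout and 0.02 in wild type.

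Acyl-CoA synthetases, which make the substrate of the thioesterases, were mixed: of 17 tested, 4 rose and 6 fell in knockout, and 3 rose and 7 fell in wild type. Acsl1, the main long-chain synthetase of liver, averaged 991 ± 117 CPM in high-fat knockout and 928 ± 126 CPM in high-fat wild type, against 2601 ± 195 CPM in chow knockout and 2403 ± 267 CPM in chow wild type. It fell by 1.39 ± 0.11 on the log2 scale in knockout (adjusted p = 8.91e-08) and by 1.37 ± 0.12 in wild type (adjusted p = 5.4e-07, edgeR). Slc27a2, a very long-chain synthetase, fell by 0.88 ± 0.08 and 0.83 ± 0.10, and Acsf2 by 0.57 ± 0.07 and 0.70 ± 0.08, in knockout and wild type.

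The oxidation genes downstream were mostly lower. Of 20 peroxisomal beta-oxidation genes 1 rose and 13 fell in knockout, and 1 rose and 12 fell in wild type. Crot, which moves shortened acyl groups onto carnitine in peroxisomes, fell by 1.28 ± 0.09 in knockout and 1.25 ± 0.11 in wild type on the log2 scale, and the thiolase Acaa1a fell by 0.80 ± 0.07 and 0.80 ± 0.08. Of 17 mitochondrial beta-oxidation genes 0 rose and 14 fell in each genotype, among them Cpt2 of the carnitine shuttle, by 0.93 ± 0.07 in knockout and 0.96 ± 0.07 in wild type. The median was -0.44 in knockout and -0.42 in wild type for the peroxisomal list, and -0.66 and -0.65 for the mitochondrial list.

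Of 24 tested genes outside the family that are known as PPAR alpha targets, some of which also stand on the oxidation lists, 0 rose and 18 fell in knockout, and 0 rose and 15 fell in wild type, with medians of -0.74 and -0.62. Of 10 regulators 1 rose and 5 fell in knockout, and 1 rose and 4 fell in wild type. Hnf4a, a hepatocyte transcription factor, fell by 0.98 ± 0.09 in knockout and 0.88 ± 0.11 in wild type on the log2 scale, and Rxra, the partner of PPAR alpha, by 0.59 ± 0.08 and 0.56 ± 0.09. Ppara itself did not pass in either genotype. Its log2 fold change was -0.15 ± 0.08 in knockout (adjusted p = 0.178, edgeR) and -0.20 ± 0.09 in wild type (adjusted p = 0.110, edgeR). Pparg, the fat-storage receptor of the same family, rose by 0.95 ± 0.20 in knockout and 1.29 ± 0.23 in wild type. In each of these lists 0 genes passed between knockout and wild type on either diet.

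**Figure D5:**
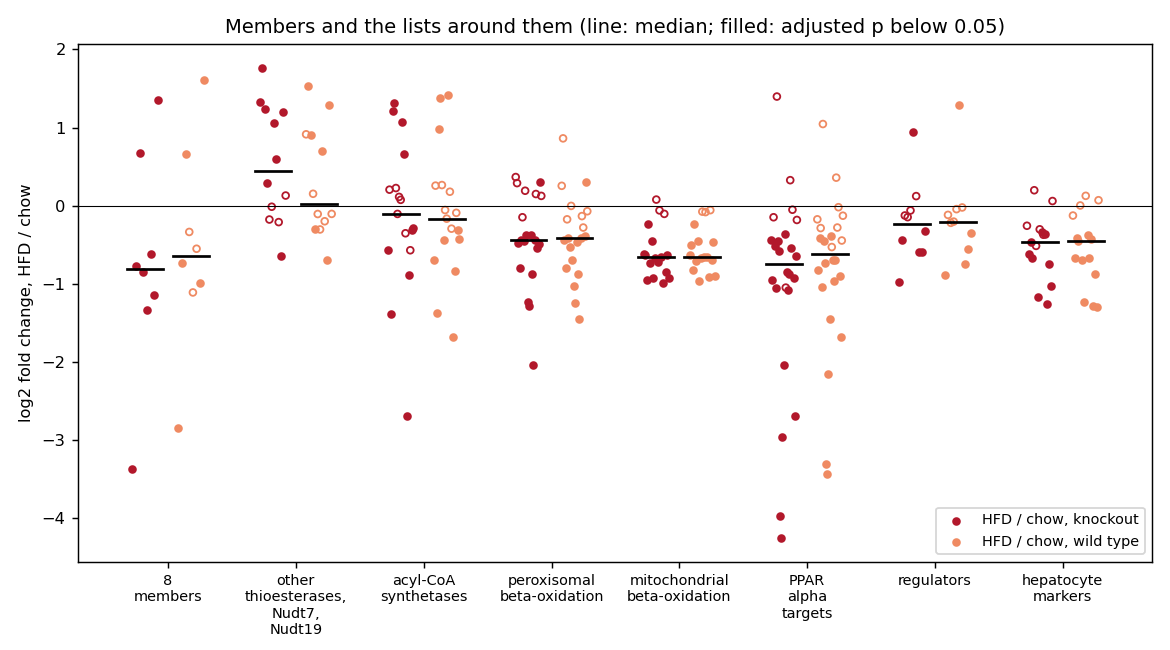
Log2 fold change of high-fat diet over chow for each tested gene of 8 gene sets, knockout left of wild type, with filled points where the adjusted p was under 0.05 and a black line at each median. The 8 members spread from -3.38 to 1.35 in knockout and from -2.85 to 1.60 in wild type, and the mitochondrial list from -0.99 to 0.08 in knockout and from -0.96 to -0.06 in wild type.

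Markers of several cell types also moved with diet. Over all genes 17.4% rose and 16.2% fell in knockout, and 15.2% rose and 14.2% fell in wild type. Of 15 hepatocyte markers 0 rose and 9 fell in knockout, and 0 rose and 11 fell in wild type, with medians of -0.47 and -0.45. The log2 fold changes of Acot1, Acot3, Acot4, Acot8 and Acot12 lay below these medians in both genotypes, and that of Acot2 in knockout alone. Single markers spread widely around the medians, and 2 of the 15 lay above 0 in knockout and 3 in wild type. Cyp2e1, at -1.17 ± 0.17 in knockout and -1.23 ± 0.19 in wild type, lay below Acot4, Acot8 and Acot12 in both genotypes. Acot3 and Acot4 did not pass the test in wild type. Of 12 macrophage markers 5 rose in knockout and 9 in wild type, of 10 stellate cell markers 8 and 9, of 6 tested cholangiocyte markers 2 and 3, and of 10 lymphocyte markers 1 and 1, with 0 falling in these 4 lists. The lymphocyte counts were not above the shares over all genes. Endothelial markers were mixed, with 0 of 10 rising and 3 falling in knockout, and 6 rising and 0 falling in wild type. Of the adipocyte markers 2 were tested and 0 passed. Summed macrophage markers ran from 235 to 461 CPM in high-fat knockout and 230.3 to 476 CPM in high-fat wild type, against 194 to 233 CPM in chow knockout and 90.3 to 209.9 CPM in chow wild type. Summed stellate markers ran from 468 to 573 CPM in high-fat knockout and 461 to 778 CPM in high-fat wild type, against 225 to 344 CPM in chow knockout and 221 to 264 CPM in chow wild type. Summed cholangiocyte markers ran from 64.4 to 114 CPM in high-fat knockout and 87.1 to 225 CPM in high-fat wild type, against 19.1 to 28.8 CPM in chow knockout and 21.4 to 40.8 CPM in chow wild type, where 1 of the 8 was at 0 in all libraries of each chow group. The part of these shifts in the diet differences of Acot9, Acot13 and the falling members was not tested.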

How the data were processed

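RNA from mouse liver was sequenced as 16 libraries in 4 groups by diet and genotype, and each library was grouped by its own labels. Per the labels' protocols, ribosomal RNA was depleted and trimmed reads were aligned with TopHat2 and quantified with Cuffdiff, on mm10 per the submitters' processing notes, and the sources used here do not give the strand setting or tool versions. Values of the deposited table were taken as estimated counts per gene, scaled neither to library size nor to length. The table's name mentions both gene counts and FPKM, and the unit was read from the values: 29.4% to 31.1% of those above 0 were whole numbers in each library, and totals differed between libraries. How the authors made them is not stated in the labels, and all CPM rest on this reading. The labels also name a small RNA library kit, and 45 cycles beside reads of 75 bases, which were not reconciled. All gene ends in the table were moved back by 1 base. Of 22315 gene names also in GENCODE M21, 20928 had its limits after this shift and 28 as written.

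Estimated counts were rounded. Genes were filtered with filterByExpr, scaled by TMM and fitted with edgeR 4.0.16 (robust quasi-likelihood, 1 mean per group, all 16 libraries, 12 residual degrees of freedom). P-values were two-sided and Benjamini-Hochberg adjusted over 16830 genes, with a threshold of 0.05. CPM are TMM-scaled, given as mean ± SD, and log2 CPM used a prior count of 2. Depth was 15888400 to 29469600 estimated counts per library. The fit was also run on counts simulated from its own means and dispersions, and no result here rests on that run. Alternatives were other filters, DESeq2 size factors, DESeq2 1.42.0, limma 3.58.1 voom, the compared groups alone, the ribosomal RNA gene left out, and libraries left out.

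All 8 members were named, of each list at most the 3 genes with the smallest adjusted p for diet in wild type, and for likeness the 3 genes closest to each member among those averaging at least 1 CPM, without predicted gene models. Acot6, Nudt7, Ppara and the hepatocyte markers that overlapped between diets were named outside this rule. Members and lists were chosen with earlier results of these data known. Sequences came from RefSeq (GRCm38.p6). A gene that this rule would name on the list of PPAR alpha targets is not reported here.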

Additional observations from a re-analysis of the deposited data

How the results depend on the processing

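The diet calls of Acot1, Acot8, Acot9, Acot12 and Acot13 were kept in 24 of 24 alternatives in both genotypes. Members called ran from 6 to 8 in knockout and from 5 to 7 in wild type, and for the genotype comparisons and the difference between diets they were 0 in all alternatives run. No paired analysis was possible because the labels give no replicate numbers. Leaving out knockout 1 on high-fat diet together with wild type 3 on chow, log2 differences of knockout from wild type on high-fat diet changed sign for Acot2 (0.00066), Acot3 (0.19), Acot8 (0.041) and Acot13 (0.083). On chow they did so for Acot3 (-0.048), Acot4 (-0.075), Acot9 (0.082) and Acot13 (0.023), as did the difference between diets for Acot3 (0.24) and Acot4 (0.26). Leaving out 1 library at a time, signs also changed for values that never passed. On high-fat diet the ranges were -0.17 to 0.078 for Acot1, -0.34 to 0.018 for Acot2, -0.24 to 0.19 for Acot3, -0.10 to 0.18 for Acot4, -0.073 to 0.040 for Acot8 and -0.067 to 0.083 for Acot13. On chow they were -0.044 to 0.53 for Acot3, -0.071 to 0.20 for Acot4, -0.087 to 0.086 for Acot9 and -0.059 to 0.027 for Acot13. For the difference between diets they were -0.57 to 0.010 for Acot3, -0.20 to 0.10 for Acot4, -0.094 to 0.0053 for Acot12 and -0.044 to 0.11 for Acot13. With the longest transcript as length, 2 members changed place in the order on chow in knockout and 3 in wild type, since the lengths differ. The cause of the other changes was not tested. Acot9, with 40.9 to 68.3 estimated counts per knockout library on chow, is the member that depth limits most.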
